A study of Drosophila melanogaster with 8 samples.

Results

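Ovarian DNA of Drosophila melanogaster that carries N6-methyladenine (6mA) was enriched with a 6mA antibody and sequenced. The regions described here are the 395 merged peak regions on scaffolds, the assembly pieces that are not part of a chromosome arm, out of 7001 regions in all (5.64%). A region is the union of peaks that share at least 1 bp in any of the 4 peak lists, and a scaffold is a sequence whose name is a long number or contains the word Scaffold. The chromosome arms (X, 2L, 2R, 3L, 3R and 4) held 6556 regions and serve as the comparison. Among the merged regions, sequence names alone chose the members, whatever their fold or library. Each region exists only because some library had a peak there, so shares of regions depend on the lists that formed them.

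Libraries came from ovaries of control flies and of flies in which UASp-Sam-S was driven in the germline by nanos-gal4, a genotype labelled Sam-S_OE. Sam-S encodes the enzyme that makes S-adenosylmethionine. The control genotype is called wildtype in the series' design text, and whether it carries the driver or the transgene is not stated in the labels. Each genotype had 2 immunoprecipitated libraries, numbered 1 and 2, and the number also gives the labelled batch. Fly age and the number of animals per library are not stated in the labels, so the spread between libraries may be in part technical. Whole ovaries hold germline and somatic cells, so a change within germline DNA and a change in the share of germline cells cannot be told apart. Immunoprecipitated libraries held from 39591292 to 49800736 tags and inputs from 39571865 to 52344880.

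6mA is adenine with a methyl group on its exocyclic nitrogen, and S-adenosylmethionine is the usual methyl donor of DNA methyltransferases. Unplaced sequences of a fly assembly come largely from heterochromatin, the compact and repeat-rich part of the genome around centromeres and on the Y chromosome. Their repeats are hard to assemble, so such pieces are short and often resemble other copies, and reads from them may not map uniquely. The peak lists rest on unique alignments by the path names in the file headers.

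The scaffold regions fell into name classes of very different size. The numbered sequences, those with a number for a name, held 382 regions on 273 sequences. The named Scaffold sequences held 13 regions on 7 sequences, with 6 regions on 4 Unmapped sequences, 3 regions on 1 XY_mapped sequence and 4 regions on 2 Y_mapped sequences. The numbered sequences were short as far as peaks reached: the largest peak position on a sequence had a median of 1057 bp, from 262 to 6698 bp, and lay below 2000 bp on 235 of the 273 (86.1%). Most numbered sequences, 185 (67.8%), held 1 region, 71 held 2, 13 held 3 and 4 held 4. Of the 382 numbered regions, 70 (18.3%) began within 200 bp of the first base, so most did not lie at the start of their sequence. The median length of a region was 275.5 bp on numbered sequences, 478 bp on named Scaffold sequences and 265 bp on the arms. All scaffold regions together covered 138 kb, of which 122 kb was on numbered sequences.

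Peaks on scaffolds were numerous in control 1 and Sam-S_OE 2 and scarce in control 2 and Sam-S_OE 1. There were 242 in control 1, 71 in control 2, 54 in Sam-S_OE 1 and 302 in Sam-S_OE 2. Libraries of different genotype and batch thus stood together, and the genotypes overlapped. Control libraries averaged 157 ± 121 and Sam-S_OE libraries 178 ± 175 (SD, n = 2 each). On the log2(count + 1) scale Sam-S_OE minus control was -0.035 (two-sided exact permutation p = 1, in a test that cannot go below 0.333 with 4 libraries). The ratio of the Sam-S_OE to the control count was 0.223 in batch 1 and 4.25 in batch 2. The log2 difference was 0.84 without control 1, -0.91 without control 2, 1.196 without Sam-S_OE 1 and -1.27 without Sam-S_OE 2, so its sign was set by single libraries. On the arms Sam-S_OE was higher in both batches, by 1.32 and 8.54 times (3168, 604, 4181 and 5158 peaks in control 1, control 2, Sam-S_OE 1 and Sam-S_OE 2).

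The length covered by scaffold peaks followed the same order. It was 85.1 kb in control 1, 29.4 kb in control 2, 28.0 kb in Sam-S_OE 1 and 103.5 kb in Sam-S_OE 2, or 57.2 ± 39.4 kb and 65.8 ± 53.4 kb by genotype (SD, n = 2, exact permutation p = 1). The spread within each genotype was far larger than the difference between them. On the log2 scale, Sam-S_OE minus control in covered length was 0.11 with all libraries, -0.64 without control 2 and -0.82 without Sam-S_OE 2. Peaks lay on 181, 64, 47 and 241 of the 280 scaffolds in the same order of libraries.

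The share of a library's own peaks that lay on scaffolds was lower in both Sam-S_OE libraries than in both controls, although in batch 2 the number of scaffold peaks was higher in Sam-S_OE. The share was 7.05% in control 1 (95% Wilson interval 6.24 to 7.95%, 3433 peaks) and 10.4% in control 2 (8.32 to 12.9%, 683 peaks). It was 1.27% in Sam-S_OE 1 (0.977 to 1.66%, 4244 peaks) and 5.48% in Sam-S_OE 2 (4.91 to 6.11%, 5509 peaks). The genotypes did not overlap, at 8.72 ± 2.37% against 3.38 ± 2.98% (SD, n = 2). The difference was -5.35 percentage points (exact permutation p = 0.333, the lowest possible here). It was -5.78 points within batch 1 and -4.91 within batch 2. In batch 2 the lower share comes from the total, as scaffold peaks were 4.25 times and arm peaks 8.54 times as many in Sam-S_OE. This share depends on how many peaks a list holds: when each list was limited to its 683 peaks of lowest q, it was 1.76% in control 1, 10.4% in control 2, 1.17% in Sam-S_OE 1 and 1.61% in Sam-S_OE 2, so that control 2 stood apart from the other 3. Without control 2 the difference was -3.67 points, and without Sam-S_OE 1 it was -3.24 points.

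**Figure D1:**
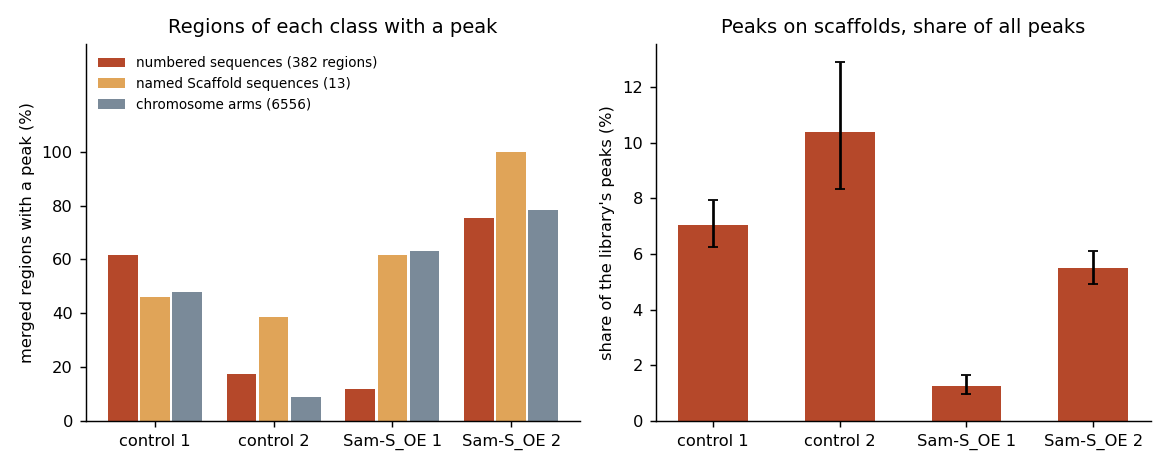
Left, share of the merged regions of each class (percent) that had a peak in each library; right, peaks on scaffolds as a percentage of all peaks of the library, with 95% Wilson intervals that cover counting error only. Numbered scaffold regions were found least in Sam-S_OE 1 (11.8%), the library that held 63.2% of the arm regions.

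Sam-S_OE 1 was the library in which scaffolds and arms parted most. Of the 395 scaffold regions, 61.0% had a peak in control 1, 18.0% in control 2, 13.4% in Sam-S_OE 1 and 76.2% in Sam-S_OE 2. Over all 7001 regions these shares were 48.4%, 9.33%, 60.1% and 78.2%. Control 1 and control 2 thus held a larger share of the scaffold regions than of all regions, Sam-S_OE 2 a similar one, and Sam-S_OE 1, with 53 scaffold regions, a far smaller one. The deficit was in the numbered class, where Sam-S_OE 1 had a peak in 45 of 382 regions (11.8%). On the named Scaffold sequences it had a peak in 8 of 13 regions, beside 6 in control 1, 5 in control 2 and 13 in Sam-S_OE 2. Peaks on the ribosomal DNA sequence numbered 7 in control 1, 0 in control 2, 0 in Sam-S_OE 1 and 31 in Sam-S_OE 2. Sam-S_OE 1 had peaks on 42 of the 273 numbered sequences, so its alignments included at least these. Whether all 4 libraries were aligned to the same set of sequences was not tested. The contrast rests on 1 library and has no replicate.

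The same was seen when each library's regions were looked up in the others. Of the 241 scaffold regions of control 1, 37 (15.4%, Wilson interval 11.3 to 20.4%) had a peak in Sam-S_OE 1, against 78.2% (76.7 to 79.6%) of its 3128 arm regions. For Sam-S_OE 2 the shares were closer, at 62.7% of the scaffold and 82.4% of the arm regions of control 1. Of the 71 scaffold regions of control 2, 61 were found in control 1, 57 in Sam-S_OE 2 and 24 in Sam-S_OE 1 (33.8%), whereas 96.5% of its arm regions were found in Sam-S_OE 1. Conversely, 51 of the 53 scaffold regions of Sam-S_OE 1 (96.2%) had a peak in Sam-S_OE 2 and 37 (69.8%) in control 1. Scaffold peaks of Sam-S_OE 1 were few, and nearly all of them were among those of Sam-S_OE 2.

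Fold enrichment is the authors' ratio of the pileup to the local input background at the summit of a peak, and weak peaks are missed more easily. The regions of control 1 were therefore divided by their fold. Of the scaffold regions with a fold of 2 or more in control 1, 11 of 27 (40.7%) had a peak in Sam-S_OE 1, against 94.5% of 1141 arm regions. Between folds of 1.5 and 2 the shares were 13.0% of 154 scaffold regions and 71.0% of 1848 arm regions. Below 1.5 they were 6 of 60 scaffold regions and 39.6% of 139 arm regions. The scaffold share was thus below the arm share in Sam-S_OE 1 in each of the 3 fold classes. In Sam-S_OE 2 the scaffold shares were 81.5%, 57.1% and 68.3% from the strongest to the weakest class, against 96.8%, 77.0% and 36.0% on the arms. In the weakest class the scaffold share in Sam-S_OE 2 was above the arm share. The caller's threshold is on q and not on fold. Regions of equal fold may therefore differ in how easily they are called on scaffolds and on arms, which was not tested.

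**Figure D2:**
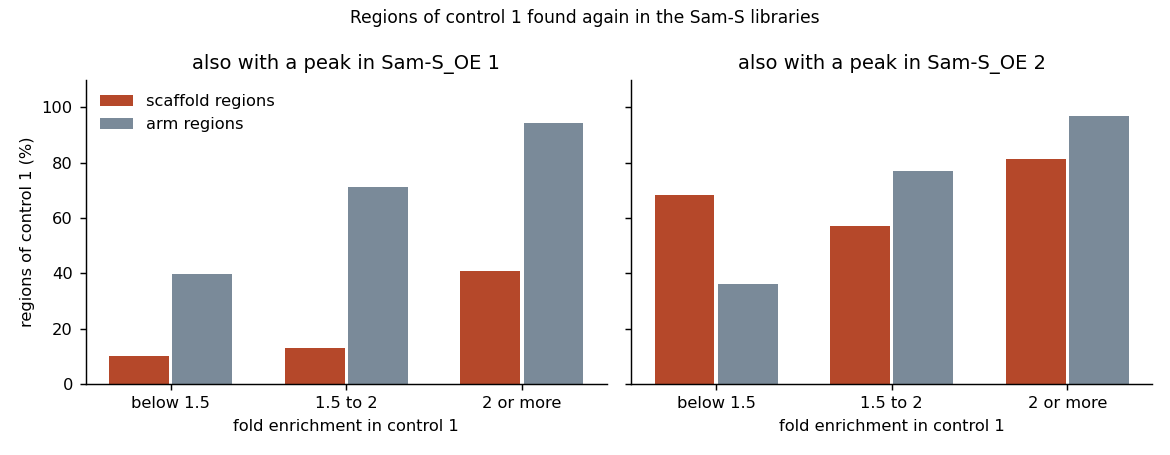
Regions with a peak in control 1, by their fold enrichment there (x axis), and the percentage of them that also had a peak in Sam-S_OE 1 (left) or Sam-S_OE 2 (right), on scaffolds and on chromosome arms. In Sam-S_OE 1 the scaffold bars stand for 6 of 60, 20 of 154 and 11 of 27 regions, below the arm bar in each class.

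The combinations of libraries that held a peak differed between scaffolds and arms. On scaffolds 129 regions (32.7%) had a peak in Sam-S_OE 2 alone, 86 (21.8%) in control 1 and Sam-S_OE 2 alone, and 80 (20.3%) in control 1 alone. None had a peak in Sam-S_OE 1 alone, beside 870 (13.3%) of the arm regions. The pair of control 1 and Sam-S_OE 2, which share neither genotype nor batch, made up 6.31% of all regions and 5.28% of arm regions.

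Of the scaffold regions, 15 had a peak in both Sam-S_OE libraries and in neither control (3.80%), beside 11.9% of all regions. The opposite set, both control libraries and neither Sam-S_OE library, held 8 scaffold regions (2.03%), beside 0.157% of all regions. Of the 11 regions of the whole genome in this set, 8 were on scaffolds and 1 was on an arm. A peak in every library but Sam-S_OE 1 was found at 30 scaffold regions (7.59%), beside 0.614% of all regions, and 13 of the 43 such regions were on arms. Both of these sets require that Sam-S_OE 1 lacks a peak. The set of both Sam-S_OE libraries and neither control instead requires a peak in Sam-S_OE 1. Such a peak was found at 53 scaffold regions (13.4%), beside 60.1% of all regions. The set made up 15 of these 53, beside 833 of the 4205 regions of the whole series with a peak in Sam-S_OE 1. Its lower share on scaffolds therefore depends on that library. The count of Sam-S_OE regions without control peaks was 144 without Sam-S_OE 1 and 29 without control 1. The count of control regions without Sam-S_OE peaks was 88 without control 2 and 38 without Sam-S_OE 2. With Sam-S_OE 1 left out, regions of Sam-S_OE 2 alone join the Sam-S_OE set. They made up 26.9% of all regions, beside 32.7% of scaffold regions. With control 2 left out, regions of control 1 alone join the control set. They made up 5.74% of all regions, beside 20.3% of scaffold regions. For the enlarged sets themselves, shares of all regions were not computed.

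**Figure D3:**
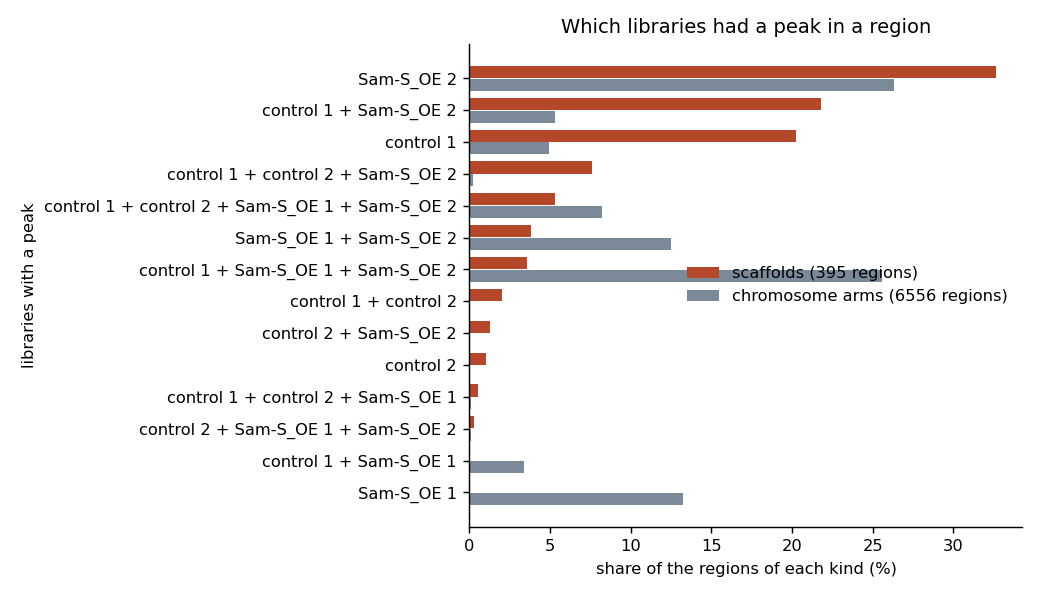
Share of scaffold regions and of arm regions (percent, x axis) by the set of libraries with a peak (y axis), for each set that held a scaffold region or more than 0.3% of arm regions. Scaffold regions lie mostly in Sam-S_OE 2, control 1 or that pair, and none in Sam-S_OE 1 alone.

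Among the numbered regions of both Sam-S_OE libraries alone, the highest mean folds were found on 3 sequences. On sequence 211000022280519, from 732 to 1057, the fold was 2.29 in Sam-S_OE 1 and 2.68 in Sam-S_OE 2. On 211000022279252, from 700 to 943, it was 2.31 and 2.35, and on 211000022278114, from 547 to 1322, it was 2.04 and 2.32. No control library had a peak at these positions. The 15 regions of this set had a median of the mean fold of 1.93. It was 1.62 for the regions shared by control 1 and Sam-S_OE 2 alone, a mean over a different pair of libraries.

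The strongest numbered regions of both control libraries alone had lower folds. These folds come from the control libraries, in which the median fold of arm peaks was also lower than in Sam-S_OE. On sequence 211000022278670, from 305 to 1556, the fold was 1.91 in control 1 and 1.68 in control 2. With 1252 bp this was also the longest region on a numbered sequence. On 211000022278856, from 455 to 726, the folds were 1.77 and 1.81, and on 211000022278326, from 334 to 556, they were 1.52 and 1.97. The 8 regions of this set had a median of the mean fold of 1.67. A list without a peak says only that the region did not pass the caller's q threshold of 0.05 there, and no fold is given for it.

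The 30 regions that lacked a peak in Sam-S_OE 1 alone lay on 29 numbered sequences and were of moderate strength. Their median fold was 1.67 in control 1, 1.59 in control 2 and 1.60 in Sam-S_OE 2, with none above 2.22. For comparison, the 21 scaffold regions with a peak in all 4 libraries had medians of 1.67, 1.70 and 1.92 in these 3 libraries and 1.75 in Sam-S_OE 1. Over all 241 scaffold regions of control 1, its median fold was 1.65 at the 37 with a peak in Sam-S_OE 1 and 1.63 at the 204 without. A fold of 2 or more was reached at 11 of the 37 (29.7%) and at 16 of the 204 (7.84%), so the medians were close and the strongest regions were a larger share where Sam-S_OE 1 had a peak.

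Those 21 regions, 16 on numbered and 5 on named Scaffold sequences, are 5.32% of the scaffold regions, beside 8.07% of all regions. They allow the fold to be compared between lists that hold the same regions. The genotype means of the medians were 1.69 ± 0.0170 in control and 1.84 ± 0.120 in Sam-S_OE (SD, n = 2), a difference of 0.149 with an exact permutation p of 0.333. It was 0.0761 in batch 1, 0.222 in batch 2 and -0.011 without Sam-S_OE 1, which also enlarges the set of regions. The fold was higher in Sam-S_OE in both batches at 7 of the 21, lower in both at 4, and the batches disagreed in sign at 10. This count over both batches was not made for arm regions or for all regions. Sam-S_OE 1 exceeded control 1 at 8 of 21 regions (38.1%), against 77.4% of the 539 arm regions shared by all libraries. Sam-S_OE 2 exceeded control 2 at 16 of 21 (76.2%), against 98.5% on the arms.

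Both Sam-S_OE folds lay above both control folds at 5 of the 21 scaffold regions, while this was so at 65.3% of the 565 such regions of the genome. Both lay below at 1, beside 0.708% of the genome's regions. The median log2 ratio of Sam-S_OE to control was -0.051 in batch 1 and 0.22 in batch 2 on scaffolds, and 0.10 and 0.49 on the arms. Control 2 had the lowest fold at 12 of the 21 scaffold regions and Sam-S_OE 1 at 7, whereas on the arms control 2 was lowest at 503 of 539 and Sam-S_OE 1 at 5.

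**Figure D4:**
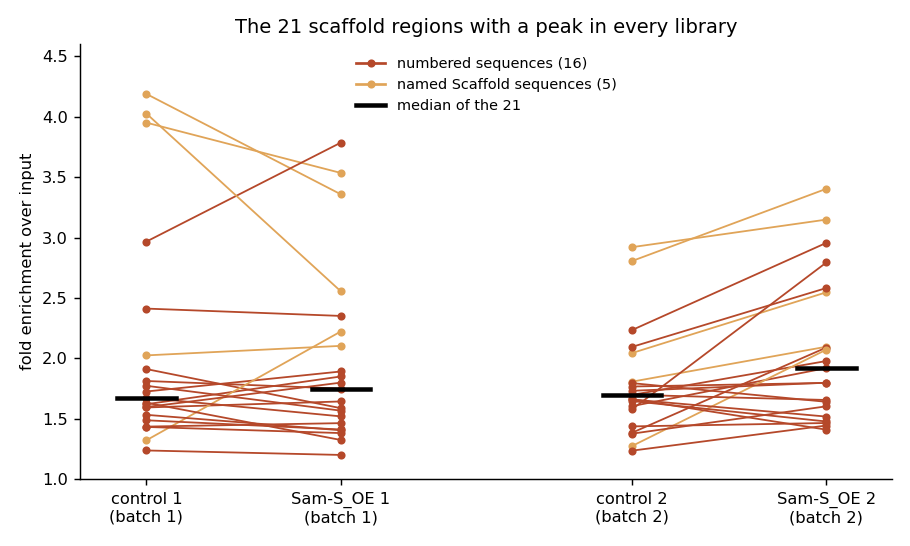
Fold enrichment over input (y axis) at the 21 scaffold regions with a peak in every library, with lines joining the control and Sam-S_OE library of a batch and black bars at the medians. Lines run in both directions in batch 1 and mostly upward in batch 2.

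The numbered regions with the highest mean fold among those found in every library were on 5 sequences. On 211000022278145, from 17 to 973, control 1 had a fold of 2.97, control 2 of 2.24, Sam-S_OE 1 of 3.78 and Sam-S_OE 2 of 2.96. This region was higher in Sam-S_OE in both batches, but the genotypes overlapped, since control 1 lay slightly above Sam-S_OE 2. On 211000022278152, from 1 to 291, the folds were 2.41, 2.10, 2.35 and 2.58 in the same order, lower in Sam-S_OE in batch 1 and higher in batch 2. On 211000022278247, from 1 to 958, they were 1.59, 1.58, 1.64 and 2.79, so Sam-S_OE 2 alone stood out. On 211000022279286, from 19 to 569, they were 1.73, 1.70, 1.89 and 1.98, with both Sam-S_OE values above both controls. On 211000022278951, from 66 to 421, all 4 lay between 1.75 and 1.81.

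The named Scaffold sequences held the strongest and longest scaffold regions. XY_mapped_Scaffold_7_D1574, a sequence mapped by its name to the X and Y chromosomes without a choice between them, had 3 regions that were found in all 4 libraries. The region from 41233 to 50599 was a single peak in each library. At 9367 bp it was the longest of the 7001 regions, beside 4828 bp for the longest on an arm. Control 1 had a fold of 4.19 there, control 2 of 2.81, Sam-S_OE 1 of 3.36 and Sam-S_OE 2 of 3.40, so the Sam-S_OE values lay between those of the controls. The peak measured 9345, 9297, 9336 and 9366 bp in the same order, and its edges therefore moved little. This sequence supplied 11.7 of the 12.9 kb covered on named Scaffold sequences in control 1, 11.5 of 12.4 kb in control 2, 11.7 of 13.9 kb in Sam-S_OE 1 and 11.7 of 16.5 kb in Sam-S_OE 2.

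The other regions of this sequence also spanned 1 kb or more. From 1 to 1333 control 1 had a fold of 4.02, control 2 of 2.04, Sam-S_OE 1 of 2.56 and Sam-S_OE 2 of 2.55. Control 1 stood above the other libraries there, and control 2 was lowest. The recomputed background was 88.9 in control 1, 165.0 in control 2, 135.5 in Sam-S_OE 1 and 170.0 in Sam-S_OE 2. It was thus lowest in control 1, where the fold was highest. From 35349 to 36402 the folds were 2.03, 1.81, 2.10 and 2.10, the Sam-S_OE values slightly above both controls. The deposited pileup signal at these summits, the height of stacked tags, lay between 288 and 435. The caller kept 1 tag per position and strand, which caps the pileup at 400 in control 1 and Sam-S_OE 1, 420 in control 2 and 479 in Sam-S_OE 2 after its scaling. Pileups at 1 to 1333 were 361, 338, 348 and 435 in the order of the folds, and those of control 1 and Sam-S_OE 2 reached 90% of the cap.

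Among the Unmapped sequences, the region of Unmapped_Scaffold_8_D1580_D1567 from 729 to 1500 had folds of 3.95, 2.92, 3.53 and 3.15 in control 1, control 2, Sam-S_OE 1 and Sam-S_OE 2. The Sam-S_OE values again lay between the controls. The same sequence had further peaks in Sam-S_OE 2 alone, from 174 to 465 with a fold of 2.29 and from 87866 to 88748 with a fold of 1.39. Unmapped_Scaffold_58_D1862, from 5736 to 6213, had folds of 1.32, 1.28, 2.22 and 2.07, so both Sam-S_OE libraries were above both controls. Its log2 ratio of Sam-S_OE to control was 0.75 in batch 1 and 0.70 in batch 2. The batch 1 ratio was the highest of the 21 regions shared by all libraries. It was picked out after its values were seen and has no test of its own. Its pileup was 265, 261, 267 and 302 in the same order, and the background recomputed from pileup and fold was 200, 204, 120 and 145, so the background differed between the genotypes more than the pileup did. Unmapped_Scaffold_29_D1705 (31256 to 31717, fold 1.70) and Unmapped_Scaffold_38_D1625 (1294 to 1569, fold 1.99) had a peak in Sam-S_OE 2 alone.

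The Y_mapped sequences, assigned by name to the Y chromosome that females lack, held 4 regions. Y_mapped_Scaffold_12_D1771 from 9379 to 10141 had a fold of 1.81 in control 1, 1.97 in Sam-S_OE 1 and 2.30 in Sam-S_OE 2, and no peak in control 2. From 64111 to 64448 it had a peak in Sam-S_OE 2 alone, with a fold of 1.21. Y_mapped_Scaffold_18_D1698 had 2 regions in both Sam-S_OE libraries only. From 7291 to 7551 the fold was 1.93 in each, and from 25163 to 25427 it was 1.76 in Sam-S_OE 1 and 1.79 in Sam-S_OE 2. The source of reads placed on Y_mapped sequences in ovary DNA was not tested. With 0, 1, 4 and 4 peaks in control 2, control 1, Sam-S_OE 1 and Sam-S_OE 2, the Y_mapped class is too small for a comparison of libraries.

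Counted over all named Scaffold sequences, there were 6 peaks in control 1, 5 in control 2, 9 in Sam-S_OE 1 and 13 in Sam-S_OE 2. Control averaged 5.5 ± 0.707 and Sam-S_OE 11 ± 2.83 (SD, n = 2 each), 0.87 apart on the log2(count + 1) scale, and Sam-S_OE was higher in both batches. The exact permutation p was 0.333. In batch 1 control and Sam-S_OE had 2 and 2 Unmapped, 3 and 3 XY_mapped, and 1 and 4 Y_mapped peaks. The batch 1 excess thus lay in the Y_mapped class alone. Of its 4 peaks in Sam-S_OE 1, those from 9429 to 9835 and from 9925 to 10138 fell in 1 region. In batch 2 the counts were 2 and 6, 3 and 3, and 0 and 4. As a share of a library's peaks, peaks on named Scaffold sequences were 0.175%, 0.732%, 0.212% and 0.236% in control 1, control 2, Sam-S_OE 1 and Sam-S_OE 2. This share was higher in Sam-S_OE in batch 1 and lower in batch 2. The batch ratios of the counts, 1.5 and 2.6, stand beside 1.32 and 8.54 for arm peaks. Among equal numbers of top peaks the counts were 4, 5, 5 and 4 and the difference was 0. On numbered sequences alone the counts were 236, 66, 45 and 289, with a log2 difference of -0.13 (exact permutation p = 1).

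The sequences with the most regions were numbered ones with 4 regions each, and none had a peak in Sam-S_OE 1. Sequence 211000022278461 had 4 regions with a peak in control 1, 1 in control 2 and 2 in Sam-S_OE 2. Sequence 211000022278421 had 2 in control 1 and 4 in Sam-S_OE 2. Sequence 211000022278821 had 3 and 4, and 211000022278608 had 3 and 3, all without a peak in control 2. Next, with 3 regions and the most covered length, came XY_mapped_Scaffold_7_D1574. Over the 273 numbered sequences, 116 had peaks from 1 library, 90 from 2, 50 from 3 and 17 from all 4.

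Regions found in more libraries were somewhat stronger and longer. The median of the mean fold was 1.58 for the 213 scaffold regions of 1 library, 1.63 for the 114 of 2, 1.71 for the 47 of 3 and 1.74 for the 21 of 4. On the arms the median was 1.87 for 2 libraries, 2.04 for 3 and 2.25 for all 4. The median length was 249 bp in 1 library and 496 bp in all 4, where a region is the union of more peaks.

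Among called peaks, those on scaffolds had a lower median fold than those on arms in every library. On scaffolds the median was 1.64 for control 1, 1.65 for control 2, 1.79 for Sam-S_OE 1 and 1.59 for Sam-S_OE 2, and on the arms 1.90, 1.77, 1.94 and 1.99. The mean difference over the 4 libraries was -0.236, lower in 4 of 4, with an exact two-sided sign-flip p of 0.125, the smallest that 4 libraries allow. A fold of 2 or more was reached by 11.2%, 9.86%, 31.5% and 13.9% of scaffold peaks, against 36.2%, 16.2%, 42.2% and 49.7% of arm peaks. Between genotypes the median scaffold fold was 1.64 ± 0.00783 in control and 1.69 ± 0.139 in Sam-S_OE (SD, n = 2, exact permutation p = 1), and the difference of 0.0486 became -0.050 without Sam-S_OE 1. The few scaffold peaks of Sam-S_OE 1 thus had the highest median fold and the many of Sam-S_OE 2 the lowest.

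The input background under scaffold peaks was higher than under arm peaks. The caller takes the local input level but never less than a genome-wide floor, which was 79.0 stacked tags in control 1, 87.2 in control 2, 75.1 in Sam-S_OE 1 and 79.0 in Sam-S_OE 2. The median background of scaffold peaks was 1.19, 1.204, 1.29 and 1.49 times this floor in the same order, against 1.00, 1.04, 1.00 and 1.00 times on the arms. The background was within 1% of the floor for 26.9%, 12.7%, 37.0% and 9.93% of scaffold peaks and for 55.9%, 40.6%, 50.7% and 53.5% of arm peaks. The mean difference in median background was 22.4 stacked tags, higher in 4 of 4 libraries (exact sign-flip p = 0.125).

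The pileup was also higher on scaffolds in 4 of 4 libraries, by 11.3 on average (exact sign-flip p = 0.125), and the median length of a peak was higher in 2 and lower in 2. Only called peaks enter these medians, and the caller's q threshold acts on pileup and background together. How far this selection shaped the differences in fold and pileup was not tested. Among peaks at the floor, the scaffold and arm medians of fold were 1.81 and 1.95 in control 1, 1.81 and 1.83 in control 2, 2.00 and 2.00 in Sam-S_OE 1, and 2.02 and 2.03 in Sam-S_OE 2. The mean difference there was -0.042, lower in 3 of 4 libraries (exact sign-flip p = 0.25). The scaffold medians at the floor rest on 65, 9, 20 and 30 peaks in control 1, control 2, Sam-S_OE 1 and Sam-S_OE 2. The arm medians rest on 1771, 245, 2120 and 2759. The floor is a minimum, so the local input may differ among these peaks. Among peaks at the floor the gap in fold was small except in control 1, where it was -0.14. This restriction was decided after seeing the data.

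**Figure D5:**
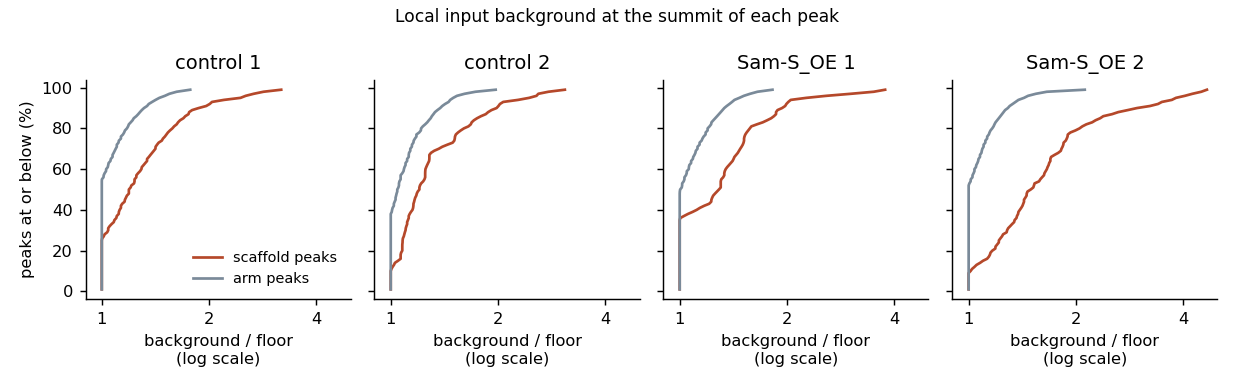
Cumulative share of peaks (percent, y axis) by local input background at the summit in multiples of the library's genome-wide floor (x axis, log scale), for scaffold and arm peaks of each library, from percentile 1 to 99. Scaffold curves lie to the right of arm curves, most of all in Sam-S_OE 2, where the median is 1.49 times the floor.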

How the data were processed

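Of the 8 samples, the 4 immunoprecipitated libraries have peak lists and the 4 inputs enter through them. Peaks were called by the authors with MACS 2.1.1.20160309 per the file headers, for each library against its own input, at a q cutoff of 0.05, after extending tags to 200 bp, keeping 1 per position and strand, and scaling the smaller library up. Bowtie2 is named in the submitters' processing notes. The genome build is not given in the sources used here. The deposited columns used were the pileup signal, the fold enrichment (a ratio) and the significance as −log10 of p and q, per the file headers. Positions are 1-based as deposited.

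Peaks sharing 1 bp were merged, a step tested on simulated lists. A region's fold in a library is its highest peak fold. The background was recomputed as (pileup + 1) / fold - 1. Genotypes were compared by an exact permutation test over 6 assignments of libraries, and scaffolds with arms by a sign-flip test over 16 sign sets. Peaks were not treated as replicates in these tests. Replicate numbers pair the libraries because the labels give each number its own batch. All regions on named Scaffold sequences are named, being no more than 15. On numbered sequences the 5 with the highest mean fold in all 4 libraries and the 3 in each genotype alone are named, together with the 5 sequences holding most regions and the 3 longest regions. The regions, lists and tests were chosen with earlier results of these data known. Wilson intervals take each peak or region of a library as independent and cover counting error only. Transposon lists, genome sequence and gene overlaps were not used here. Scripts ran under Python 3.11.15 with pandas 2.3.3, numpy 2.4.6 and scipy 1.17.1, and matplotlib 3.10.9 drew the figures.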

Additional observations from a re-analysis of the deposited data

Results flagged for a closer look

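Within batch 1 and batch 2, Sam-S_OE minus control had opposite signs for 5 measures of the scaffold peaks. On the log2 scale with 1 added, the number of scaffold peaks differed by -2.14 and 2.07, and the covered length in kb by -1.57 and 1.78. The number of scaffolds with a peak differed by -1.92 and 1.9, and the number of peaks on numbered sequences by -2.37 and 2.11. The median fold of scaffold peaks differed by 0.152 and -0.0554. Each batch holds 1 library per genotype, and the difference between batches was not tested.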

How the results depend on the processing

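With 2 libraries per genotype no comparison could pass 0.05, so only signs and sizes were compared. Restricting peaks to the background floor, or to pileups under 90% of the ceiling, was decided after seeing the data. The lower scaffold share of Sam-S_OE peaks kept its sign in every setting run (-7.45 to -3.20 percentage points). So did the share of covered length (-9.10 to -3.98) and the lower scaffold fold than on arms (-0.27 to -0.042). With equal numbers of top peaks, the share of covered length was 5.09% in control 1 and 13.2% in control 2. It was 4.67% in Sam-S_OE 1 and 5.24% in Sam-S_OE 2. Sam-S_OE 2 then lay above control 1, and control 2 stood apart from the others. The near-zero genotype differences changed sign. With folds of at least 1.8, the log2 difference in scaffold peaks became 0.34, in scaffolds with a peak 0.37 and in peaks on numbered sequences 0.21. With peaks within 500 bp merged, that in scaffold peaks became 0.013. With equal numbers of top peaks, that in covered length became -0.40. The scaffold excess in pileup became -3.45 among peaks at the floor. There the background is nearly fixed, so pileup and fold carry the same information. The cause of the other sign changes was not tested.

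Leaving out each library in turn gave log2 differences from -1.27 to 1.196 in scaffold peaks, -0.82 to 1.03 in covered length, -1.18 to 1.15 in scaffolds with a peak and -1.45 to 1.202 in peaks on numbered sequences. The difference in median fold ran from -0.050 to 0.147, and that at regions shared by all libraries from -0.011 to 0.243. The count of regions in both Sam-S_OE libraries alone, 15, ran from 16 to 144, and that in both control libraries alone, 8, from 10 to 88. Fewer libraries then have to hold or lack a peak, and shares of all regions were not computed. With equal numbers of top peaks these counts were 1 and 3. The count for both control libraries was 2 with folds of at least 1.8 and 4 with peaks merged within 500 bp.

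With batch as a replicate block, the scaffold share differed by the same -5.35 points with an exact permutation p of 0.5, the smallest this block allows, and the block changed no call.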
